A study of Mus musculus with 18 samples.

Results

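The 40 mitosis genes described here encode proteins that carry a cell from the end of its second gap phase through chromosome segregation and cytokinesis. They were taken as a named list of symbols and looked up in the gene counts of a mouse RNA-seq experiment on synovial fibroblasts, the stromal cells of the joint lining. All 40 were found among the 32285 genes of the count table, and all 40 passed the filter on low counts that left 15072 genes for testing. The lowest count of any of the 40 genes in any library was 131, for Cdc25c. The list was not drawn from measured values, but it was proposed when earlier results of these data were known.

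By its design, the experiment addresses how FGF2, a fibroblast growth factor, and OPN, the secreted phosphoprotein osteopontin, act on fibroblasts alone and together, and whether fibroblasts from arthritic joints differ. Fibroblasts were sorted from paws of mice of WT genotype, and all treatments were given in culture. The 6 groups, with 3 libraries each, were naive fibroblasts given FGF2 and OPN together, naive fibroblasts given FGF2, naive fibroblasts given OPN, STIA fibroblasts given OPN, unstimulated STIA fibroblasts and unstimulated naive fibroblasts. FGF2 was given at 10 ng/mL and OPN at 50 ng/mL for 3 days. STIA is arthritis induced by serum of K/BxN mice, which passes inflammatory joint disease to a recipient animal; the naive cells came from mice without that serum. The age and sex of the mice, the antibodies of the sort, how long unstimulated cells were kept and whether replicates were separate mice or cultures are not stated in the labels. The p-values below therefore set differences between groups against the spread between these libraries, which may in part be technical. A difference between stimulated and unstimulated cells cannot be told apart from a difference in time in culture, if there was one.

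Entry into mitosis is driven by CDK1 bound to cyclin B, with PLK1 and the Aurora kinases shaping the spindle and the chromosomes. The spindle checkpoint holds the anaphase-promoting complex in check until every kinetochore is attached, after which CDC20 directs the complex to destroy cyclin B and securin, chromosomes part and the central spindle guides the cleavage furrow. Transcripts of these genes accumulate late in the cell cycle, through the MuvB complex with B-MYB and FOXM1, and are low in resting cells, so in a bulk culture they follow the cells in cycle. Because these are bulk samples, a lower share of cycling cells and less of each transcript per cycling cell cannot be told apart in any of the results below.

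Promoter windows are shown because such genes share short sequence elements near their start sites. The element called CHR, read as TTTGAA or TTTAAA, is the contact of the MuvB complex, and CCAAT is the contact of NF-Y. The RefSeq promoter table (GRCm38.p6) held windows from 250 bases before to 50 bases after a start site for 33 of the 40 genes, in 35 windows of 300 bases. TTTGAA, searched on both strands, stood in 28 of the 35 windows (80.0%), against 17.9% of all 32851 windows of the same length. TTTAAA stood in 9 windows (25.7%, against 13.2% of all windows) and CCAAT in 26 windows (74.3%, against 37.4%). Either CHR form together with CCAAT was present in 71.4% of the windows of the mitosis genes and 10.7% of all windows, with each match counted whether or not it overlapped another. The first base of a CHR form lay within 50 bases of the start site in 28 of the 35 windows, against 8.28% of all windows. The letters GCGGGAA, an E2F-like motif, were in none of the 35 windows and in 4.60% of all windows.

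Windows of 6 genes are printed 5′ to 3′ on the strand of the gene, with both CHR forms and CCAAT (on either strand) in capitals. Cdc20, Plk1 and Ccnb2 are shown because they had the highest levels per length in naive cells. Knl1 and Top2a are shown for large falls under FGF2 plus OPN, and Cenpa and Ccnb2 for the smallest falls. The windows are Cdc20 at chr4:118437294-118437593 on the minus strand, Plk1 at chr7:122159185-122159484 on the plus strand, Ccnb2 at chr9:70421505-70421804 on the minus strand, Cenpa at chr5:30666636-30666935 on the plus strand, Top2a at chr11:99024140-99024439 on the minus strand and Knl1 at chr2:119046869-119047168 on the plus strand.
Cdc20: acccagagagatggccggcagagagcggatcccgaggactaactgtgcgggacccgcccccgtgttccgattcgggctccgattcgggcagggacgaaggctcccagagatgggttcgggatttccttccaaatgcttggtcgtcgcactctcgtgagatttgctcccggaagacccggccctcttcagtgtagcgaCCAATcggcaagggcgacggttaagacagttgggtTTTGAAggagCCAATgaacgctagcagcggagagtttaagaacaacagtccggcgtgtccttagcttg
Plk1: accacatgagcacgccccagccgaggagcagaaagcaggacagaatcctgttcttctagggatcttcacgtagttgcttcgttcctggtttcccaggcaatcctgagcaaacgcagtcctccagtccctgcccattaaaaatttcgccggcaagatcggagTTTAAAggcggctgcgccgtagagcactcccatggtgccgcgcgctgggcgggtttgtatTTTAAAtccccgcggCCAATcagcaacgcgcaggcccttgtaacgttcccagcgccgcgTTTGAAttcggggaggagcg
Ccnb2: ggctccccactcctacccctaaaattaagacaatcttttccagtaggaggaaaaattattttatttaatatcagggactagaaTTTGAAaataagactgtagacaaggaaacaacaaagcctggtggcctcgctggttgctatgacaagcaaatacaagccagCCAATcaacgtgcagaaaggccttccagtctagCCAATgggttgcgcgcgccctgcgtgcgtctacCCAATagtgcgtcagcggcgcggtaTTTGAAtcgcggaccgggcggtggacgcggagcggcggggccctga
Cenpa: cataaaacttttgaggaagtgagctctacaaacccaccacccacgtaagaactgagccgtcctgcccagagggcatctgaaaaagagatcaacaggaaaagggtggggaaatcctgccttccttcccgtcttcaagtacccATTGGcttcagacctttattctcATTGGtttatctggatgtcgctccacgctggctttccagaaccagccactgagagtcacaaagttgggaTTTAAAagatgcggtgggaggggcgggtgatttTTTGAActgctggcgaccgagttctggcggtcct
Top2a: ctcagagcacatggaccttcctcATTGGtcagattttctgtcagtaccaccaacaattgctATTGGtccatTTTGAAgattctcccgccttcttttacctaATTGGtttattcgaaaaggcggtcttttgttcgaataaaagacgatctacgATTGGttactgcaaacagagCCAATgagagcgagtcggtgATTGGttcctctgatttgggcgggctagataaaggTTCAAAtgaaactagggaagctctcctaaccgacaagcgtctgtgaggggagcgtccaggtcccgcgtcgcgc
Knl1: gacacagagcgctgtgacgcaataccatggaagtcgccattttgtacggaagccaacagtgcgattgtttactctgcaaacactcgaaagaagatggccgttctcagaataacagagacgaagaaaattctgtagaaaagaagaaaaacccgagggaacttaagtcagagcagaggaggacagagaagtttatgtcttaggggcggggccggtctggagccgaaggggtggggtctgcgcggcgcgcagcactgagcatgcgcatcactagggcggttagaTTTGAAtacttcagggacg

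In these windows the TTTGAA nearest to the start site began at -18 in Cdc20, 31 in Plk1, 5 in Ccnb2, 17 in Cenpa, -23 in Top2a and 32 in Knl1, counting the start site as 1 and the base before it as -1. Knl1 was the 1 gene of the 6 whose window held no CCAAT. Among the windows printed, genes with large and with small falls under FGF2 plus OPN both held TTTGAA close to the start site. This did not hold for every gene with a large fall. Mki67, not printed, changed by -1.08 (log2) against naive cells, and its TTTGAA matches began at -116 and -98. No difference between genes with large and small falls was tested.

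Library totals ran from 27527043 to 40357342 counts, so that 3 counts, the limit that a count of 0 allows, correspond to 0.0743 to 0.109 CPM (counts scaled to the size of the library), for counting error only. Levels of the mitosis genes are given as CPM on library sizes scaled by the trimmed mean of M values (TMM), and tests are from edgeR's quasi-likelihood model over all 18 libraries with Benjamini-Hochberg adjustment over the 15072 genes, called at an adjusted p below 0.05. In CPM on plain library totals, fibroblast markers were high throughout (Col1a1 at 3724 CPM or more, Vim at 4703 CPM or more), whereas the leukocyte marker Ptprc reached at most 0.253 CPM, the endothelial marker Pecam1 at most 0.507 CPM, and Cd3e of T cells had no count in any library. Other markers of cell types besides fibroblasts were higher. The endothelial markers Kdr and Cdh5 reached 10.1 and 3.79 CPM and the macrophage marker Mrc1 8.55 CPM, all with FGF2. The macrophage marker Lyz2 reached 11.6 CPM with OPN, and the pericyte marker Rgs5 70.5 CPM with FGF2. The summed level of 8 fibroblast markers differed between groups, at 30509 to 34706 CPM with FGF2 plus OPN, 20885 to 22278 CPM with FGF2 and 67260 to 75672 CPM in naive cells. The single markers did not all follow that sum: with FGF2 plus OPN against naive cells Col1a1, Col1a2, Thy1 and Pdgfrb were called lower, Dcn (2.03), Pdgfra (1.19) and Vim (0.48, all log2) were called higher, and Col3a1 was not called. The FGF2 library of replicate 2 stood furthest from the other libraries of its group, with a root mean square distance of 0.277 on the log2 scale against 0.196 to 0.242 for the other 17 libraries. Exons of 9 of the 40 genes (Ccna2, Cdc20, Cdc25c, Cdca8, Kif20a, Kif4, Nusap1, Prc1 and Ube2c) overlap exons of a gene on the opposite strand, by 53 bases (Cdc20 and Elovl1) to 1271 bases (Kif20a and Cdc23), and whether counting used strand is not stated in the labels.

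The 40 genes together took 0.0879% to 0.255% of all counts. Their summed level was 939 ± 117 CPM with FGF2 plus OPN, 2041 ± 287 CPM with FGF2, 1521 ± 93.7 CPM with OPN, 2268 ± 31.0 CPM in STIA cells given OPN, 2451 ± 109.9 CPM in unstimulated STIA cells and 1707 ± 96.9 CPM in naive cells (SD, n = 3 each). Unstimulated STIA cells had the highest group mean for 34 of the 40 genes, FGF2 for 3 and STIA cells given OPN for 3. FGF2 plus OPN had the lowest mean for 39 genes, and OPN alone for the remaining gene, Ccnb2. Every library given both factors lay below the naive mean for all 40 genes, and every STIA library, with or without OPN, lay above it for all 40. Sums by library ran from 804 to 1018 CPM with both factors, and from 1712 to 2240 CPM with FGF2. Libraries given OPN ran from 1414 to 1589 CPM, STIA libraries given OPN from 2234 to 2295 CPM, unstimulated STIA libraries from 2355 to 2571 CPM and naive libraries from 1634 to 1817 CPM.

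**Figure D1:**
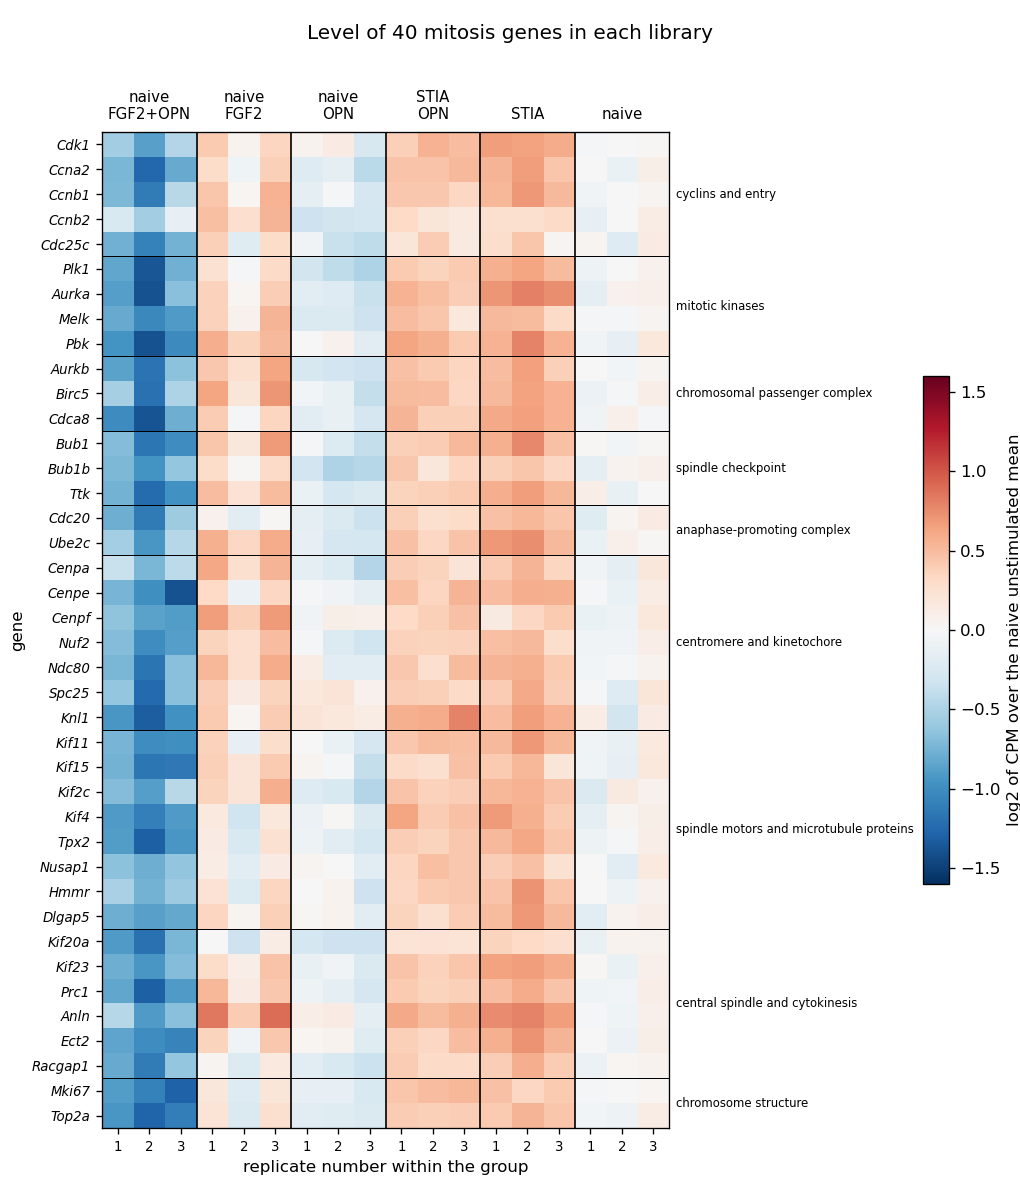
Level of each of the 40 genes (rows, grouped by role) in each of the 18 libraries (columns, by group and replicate number), as the log2 ratio of its CPM to the mean of the naive unstimulated libraries. The 3 libraries given FGF2 plus OPN are below that mean for all 40 genes, the 6 STIA libraries are above it for all 40, and replicate 2 of FGF2 is the lowest of its group for all 40.

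Within the naive cells the 40 genes differed widely in level. Per length of exon, in RPKM (CPM for each kilobase of exon), Cdc20, the activator of the anaphase-promoting complex, led with 38.9 ± 4.34 RPKM. Plk1 followed with 25.1 ± 1.23 RPKM and Ccnb2, a B-type cyclin, with 24.5 ± 2.13 RPKM (SD, n = 3 each). Plk1 and Ccnb2 lay within each other's spread, while Cdc20 stood above both by more than the SDs. The spindle assembly factor Tpx2 with 20.1 ± 1.38 RPKM and Top2a, the topoisomerase that untangles sister chromatids, with 19.9 ± 1.48 RPKM were also within each other's spread. At the low end stood Cdc25c, the phosphatase that activates CDK1, with 1.87 ± 0.22 RPKM, the kinetochore protein gene Cenpf with 1.78 ± 0.20 RPKM and the spindle kinesin Kif15 with 1.32 ± 0.15 RPKM.

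Cells given FGF2 and OPN together had less RNA of every one of the 40 mitosis genes than naive cells, than cells given FGF2 and, except for 2 genes, than cells given OPN. Against naive cells 40 of the 40 genes were lower and none was higher, where 26.1% of all genes tested were lower and 49.8% changed in either direction. The median log2 fold change of the 40 genes was -0.87, a level 0.548 times that of naive cells, and the median over all genes tested was -0.01. Against FGF2 alone 40 of 40 were lower (31.2% of all genes, and 58.4% in either direction), with a median of -1.14, or 0.455 times the FGF2 level. Against OPN alone 38 of 40 were lower (29.5% of all genes), with a median of -0.69. These 3 comparisons share the libraries given both factors. With plain library totals in place of TMM scaling the median of all genes moved to 0.14 against naive cells and to 0.12 against OPN, and the medians of the 40 genes were -0.73 and -0.56.

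The genes of chromosome structure were among those that fell furthest below naive cells. Top2a had 94.1, 73.8 and 83.5 CPM with FGF2 plus OPN, 209, 154 and 215 CPM with FGF2, 159.6, 157 and 153 CPM with OPN and 174, 170.1 and 195 CPM in naive cells. Mki67, the surface protein of mitotic chromosomes used as a proliferation marker, had 55.9, 49.0 and 42.3 CPM with both factors, 118, 90.4 and 119 CPM with FGF2, 94.6, 94.7 and 87.8 CPM with OPN and 102, 104 and 106 CPM in naive cells. In both genes all 3 libraries given both factors lay below every library of the other 3 naive-cell groups. The log2 fold change of FGF2 plus OPN against naive cells was -1.10 ± 0.10 (SE, edgeR adjusted p = 1.71e-08) for Top2a and -1.08 ± 0.09 (SE, edgeR adjusted p = 5.14e-09) for Mki67. Against FGF2 it was -1.20 ± 0.10 and -1.15 ± 0.09, and against OPN -0.90 ± 0.10 and -0.91 ± 0.09.

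All 5 genes of the cyclins and mitotic entry were lower with both factors than in naive cells, by unequal amounts. Cdk1, the mitotic kinase itself, had 32.9, 26.6 and 35.0 CPM with FGF2 plus OPN, 64.8, 50.4 and 61.8 CPM with FGF2, 50.5, 53.0 and 40.8 CPM with OPN and 48.0, 48.3 and 49.2 CPM in naive cells. Ccnb1, its main cyclin partner, had 32.4, 24.7 and 39.5 CPM with both factors, 72.9, 54.7 and 78.5 CPM with FGF2, 48.0, 52.2 and 44.5 CPM with OPN and 51.5, 53.6 and 55.3 CPM in naive cells. For these genes no library given both factors reached any other naive-cell library, and replicate 2 of FGF2 lay just above the naive libraries for Cdk1 and among them for Ccnb1. The log2 fold change against naive cells was -0.62 ± 0.10 (SE, edgeR adjusted p = 4.46e-05) for Cdk1 and -0.73 ± 0.14 (SE, edgeR adjusted p = 0.000317) for Ccnb1. Ccnb2 stood apart, with 31.7, 25.6 and 34.3 CPM with both factors, 52.7, 45.3 and 54.8 CPM with FGF2, 29.8, 30.7 and 30.8 CPM with OPN and 34.4, 37.4 and 40.9 CPM in naive cells. Its libraries given both factors lay on either side of those given OPN alone. The log2 fold change of Ccnb2 was -0.30 ± 0.09 (SE, edgeR adjusted p = 0.0092) against naive cells, the smallest fall of the 40, and with plain library totals it was -0.15 (edgeR adjusted p = 0.149), past no threshold. Against OPN it was 0.01 ± 0.09 (SE, edgeR adjusted p = 0.955), and against FGF2 -0.74 ± 0.09 (SE, edgeR adjusted p = 2.89e-07).

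The mitotic kinases were lower with both factors in each of the 3 comparisons. Pbk, a kinase active in mitosis, had 10.3, 7.58 and 9.86 CPM with FGF2 plus OPN, 29.9, 25.6 and 28.5 CPM with FGF2, 19.9, 20.9 and 17.8 CPM with OPN and 19.2, 18.2 and 22.5 CPM in naive cells. All 3 libraries given both factors lay below, and all 3 given FGF2 above, the others, and its log2 fold changes were -1.10 ± 0.11 against naive cells, -1.59 ± 0.11 (SE, edgeR adjusted p = 4.25e-11) against FGF2 and -1.07 ± 0.11 against OPN, the first and second of these the largest falls of the 40 genes. Plk1 had 31.1, 21.4 and 32.3 CPM with FGF2 plus OPN, 65.2, 54.2 and 68.6 CPM with FGF2, 45.2, 41.7 and 39.3 CPM with OPN and 52.4, 55.5 and 57.8 CPM in naive cells. The highest Plk1 library given both factors lay below the lowest of every other group. Its log2 fold change against naive cells was -0.96 ± 0.11 (SE, edgeR adjusted p = 6.91e-07).

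All 3 genes of the chromosomal passenger complex and all 3 of the spindle checkpoint were lower with both factors than with FGF2 and than in naive cells. Aurkb, the passenger complex kinase that corrects faulty attachments, had 12.5, 10.1 and 14.4 CPM with FGF2 plus OPN, 30.6, 27.2 and 35.4 CPM with FGF2, 19.0, 18.5 and 18.2 CPM with OPN and 22.9, 22.0 and 23.4 CPM in naive cells. Bub1, a checkpoint kinase at kinetochores, had 15.3, 11.1 and 12.5 CPM with both factors, 33.8, 28.0 and 39.8 CPM with FGF2, 24.4, 21.2 and 19.0 CPM with OPN and 25.1, 24.2 and 25.2 CPM in naive cells. For both genes the 3 libraries given both factors were the lowest and the 3 given FGF2 the highest of the naive-cell groups, with no overlap between these and naive cells. The log2 fold change of FGF2 plus OPN against naive cells was -0.88 ± 0.11 (SE, edgeR adjusted p = 5.02e-07) for Aurkb and -0.93 ± 0.13 (SE, edgeR adjusted p = 3.85e-06) for Bub1. Against FGF2 the changes were -1.33 ± 0.11 for Aurkb, -1.38 ± 0.12 for Bub1 and -1.38 ± 0.11 for Ttk, the checkpoint kinase MPS1. Bub1b, which encodes the checkpoint protein BUBR1, had a log2 fold change of -0.34 ± 0.09 (SE, edgeR adjusted p = 0.00397) against OPN alone, and with plain library totals it was -0.21 (edgeR adjusted p = 0.0591), past no threshold.

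Of the genes of the anaphase-promoting complex, Cdc20 had 42.2, 33.3 and 48.9 CPM with FGF2 plus OPN, 76.4, 64.4 and 73.8 CPM with FGF2, 65.4, 61.8 and 57.1 CPM with OPN and 63.7, 74.6 and 79.5 CPM in naive cells. The libraries of FGF2 alone and of naive cells overlapped here, while those given both factors were below all of them. Cdc20 changed by -0.81 ± 0.11 (SE, edgeR adjusted p = 3.1e-06) against naive cells. Ube2c, the ubiquitin-conjugating enzyme of the complex, had 26.1, 20.0 and 27.8 CPM with both factors, 56.2, 48.0 and 57.5 CPM with FGF2, 34.7, 31.7 and 31.2 CPM with OPN and 35.4, 40.3 and 38.5 CPM in naive cells. Its 3 libraries given both factors were again below all others, and its change against naive cells was -0.62 ± 0.10 (SE, edgeR adjusted p = 1.9e-05). Ube2c exons overlap those of Tnnc2 on the opposite strand over 592 bases.

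All 7 genes of the centromere and kinetochore were lower with both factors than in naive cells. Knl1, the outer kinetochore scaffold that recruits checkpoint proteins, had 8.72, 6.68 and 8.53 CPM with FGF2 plus OPN, 22.3, 17.1 and 22.0 CPM with FGF2, 19.2, 18.7 and 18.04 CPM with OPN and 18.1, 13.6 and 18.3 CPM in naive cells. Cenpa, the histone H3 variant that marks centromeres, had 24.3, 18.8 and 23.4 CPM with both factors, 47.9, 37.2 and 45.2 CPM with FGF2, 28.0, 26.9 and 22.6 CPM with OPN and 29.9, 28.2 and 35.4 CPM in naive cells. For Knl1 the libraries given both factors lay well below all others, whereas for Cenpa they overlapped with those given OPN. Knl1 changed by -1.06 ± 0.12 (SE, edgeR adjusted p = 3.51e-07) against naive cells and by -1.22 ± 0.12 against OPN, the largest fall of the 40 genes in that comparison. Cenpa changed by -0.49 ± 0.11 (SE, edgeR adjusted p = 0.00111) against naive cells and by -0.22 ± 0.11 (SE, edgeR adjusted p = 0.103) against OPN, which with Ccnb2 made the 2 genes not called there. With no filter on low counts Cenpa was called against OPN (edgeR adjusted p = 0.0244). Spc25, part of the NDC80 complex that grips microtubules, and Cenpe, a kinetochore kinesin, were lower than with OPN, with log2 fold changes of -0.96 ± 0.12 and -0.93 ± 0.13 (SE) and edgeR adjusted p = 1.48e-06 and 5.68e-06.

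All 14 genes of the spindle, the central spindle and cytokinesis were lower with both factors than in naive cells. Tpx2 had 50.6, 38.3 and 49.2 CPM with FGF2 plus OPN, 103, 79.3 and 112 CPM with FGF2, 88.8, 82.8 and 77.5 CPM with OPN and 89.03, 92.2 and 101 CPM in naive cells. Anln, which encodes anillin of the contractile ring, had 69.0, 50.3 and 59.3 CPM with both factors, 169, 125 and 176 CPM with FGF2, 102, 104 and 85.8 CPM with OPN and 92.7, 90.5 and 100.4 CPM in naive cells. Libraries given both factors lay below all others for both genes, and only for Anln were all 3 FGF2 libraries above all naive ones. Tpx2 changed by -1.03 ± 0.11 (SE, edgeR adjusted p = 2.56e-07) and Anln by -0.67 ± 0.12 (SE, edgeR adjusted p = 0.000114) against naive cells. Against FGF2 the change of Anln was -1.39 ± 0.12 and that of Cenpf -1.37 ± 0.10 (SE), which with Pbk, Ttk and Bub1 were the 5 largest falls. Against OPN the smallest called falls were those of Bub1b, Kif2c and Ube2c, the last at -0.40 ± 0.10 (SE, edgeR adjusted p = 0.00162). The smallest falls against FGF2 were -0.72 for Nusap1, a spindle-binding protein gene, -0.74 for Ccnb2, -0.75 for Hmmr, a microtubule-associated protein gene, -0.79 for Cdc20 and -0.84 for Racgap1 of the centralspindlin complex. Against naive cells Hmmr changed by -0.61 ± 0.12 (SE, edgeR adjusted p = 0.000337). Kif2c, a microtubule-depolymerising kinesin, changed by -0.36 ± 0.11 (SE, edgeR adjusted p = 0.00797) against OPN, and with plain library totals by -0.24 (edgeR adjusted p = 0.0644), past no threshold. Ect2, the activator of RhoA at the cleavage furrow, changed by -0.94 ± 0.10 (SE, edgeR adjusted p = 1.49e-07) against OPN.

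The libraries given both factors did not overlap with the naive libraries for any of the 40 genes, all of them lower, where 27.5% of all genes tested had libraries that were lower without overlap. They lay below those of FGF2 without overlap for all 40 (31.9% of all genes), and below those of OPN for 37 of the 40 (31.0% of all genes). Without replicate 2 of FGF2, 40 genes were lower than with FGF2, and the median was -1.24. Within the group, replicate 2 of FGF2 plus OPN was the lowest library for 36 of the 40 genes. The summed level of 4 pericyte and smooth muscle markers was 48.3 to 56.6 CPM with both factors and 28.5 to 71.5 CPM with FGF2, against 4.72 to 6.70 CPM in naive cells. With both factors against naive cells Rgs5 (4.10), Kcnj8 (2.73) and Abcc9 (2.36) were called higher and Myh11 (-1.07) lower on the log2 scale. Of the 4 macrophage markers tested, Cd68 (1.67) was called higher and Lyz2 (-1.66) and Csf1r (-0.89) lower, and none of the 3 endothelial markers tested was called. The part of these markers in the result was not tested.

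**Figure D2:**
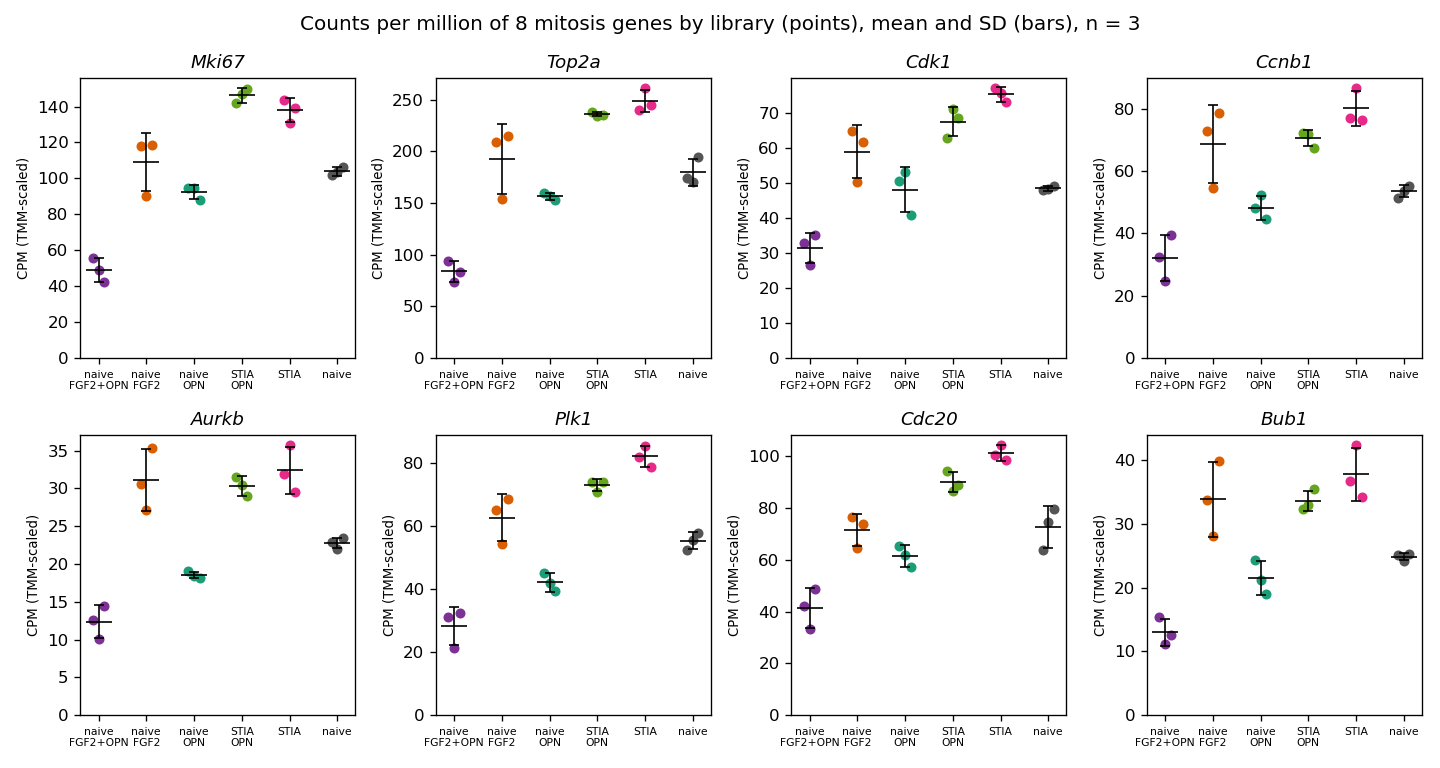
CPM (TMM-scaled) of 8 of the 40 genes in each library (points) by group, with the mean (long bar) and SD (error bar, n = 3). In every panel the group given FGF2 plus OPN has the lowest mean, and the unstimulated STIA group the highest for all but Mki67, where STIA cells given OPN stand at 146 CPM.

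A second question of the design is whether FGF2 and OPN given together act as the sum of their single effects. The interaction, the effect of FGF2 in the presence of OPN minus its effect in the absence of OPN, was below 0 for all 40 genes and called for all 40, where 27.2% of all genes tested had a called negative interaction and 51.2% a called one of either sign. Its median over the 40 genes was -0.98, and -0.03 over all genes tested. The largest negative values were -1.56 ± 0.15 for Pbk, -1.52 ± 0.17 for Knl1, -1.43 ± 0.16 for Anln, -1.41 ± 0.14 for Cenpf and -1.25 ± 0.17 for Spc25 (SE), with edgeR adjusted p from 1.65e-08 to 4.06e-06. The smallest were -0.43 ± 0.13 for Ccnb2, -0.55 ± 0.15 for Cdc20, -0.56 ± 0.13 for Bub1b, -0.57 ± 0.14 for Kif20a, a central spindle kinesin, and -0.58 ± 0.14 for Racgap1 (SE), with edgeR adjusted p from 0.0012 to 0.00676. Exons of Cdc20 and Kif20a overlap those of a gene on the opposite strand. In cells without OPN, FGF2 lowered none of the 40 genes past the threshold, and in cells with OPN it lowered 38 of them.

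Among the best known members the interaction was -0.98 for Mki67, -1.001 for Top2a, -0.89 for Cdk1, -0.95 for Ccnb1, -1.04 for Aurkb, -0.75 for Plk1 and -1.17 for Bub1 on the log2 scale. By role, its median was -1.23 for the 7 centromere and kinetochore genes, -1.17 for the 3 spindle checkpoint genes and -1.06 for the 3 passenger complex genes. It was -0.87 for the 5 cyclin and entry genes and -0.72 for the 2 genes of the anaphase-promoting complex. These differences between roles were not tested. Leaving out replicate 2 of FGF2 moved the median of the 40 to -1.09.

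FGF2 alone raised part of the 40 genes. Against naive cells 24 of 40 were higher and none was lower, where 29.1% of all genes tested were higher and 28.1% lower. The median log2 fold change of the 40 genes was 0.29, or 1.22 times the naive level, against 0.01 over all genes. The 3 checkpoint genes and 6 of 7 centromere and kinetochore genes were called, but neither of the genes of chromosome structure was. Libraries did not overlap, with FGF2 above naive, for 18 of the 40 genes (31.4% of all genes tested).

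The highest rise with FGF2 was that of Anln, at 157 ± 27.2 CPM with FGF2 and 94.6 ± 5.21 CPM in naive cells (SD, n = 3 each), a log2 fold change of 0.73 ± 0.11 (SE, edgeR adjusted p = 2.42e-05). Cenpf had 43.6, 35.9 and 44.2 CPM with FGF2 and 25.5, 26.1 and 31.0 CPM in naive cells and changed by 0.58 ± 0.10 (SE, edgeR adjusted p = 1.55e-05). Birc5, the passenger complex subunit survivin, had 39.8, 29.5 and 41.8 CPM with FGF2 and 24.0, 25.3 and 27.7 CPM in naive cells and changed by 0.53 ± 0.15 (SE, edgeR adjusted p = 0.00507). For all 3 genes each FGF2 library exceeded each naive one. Ube2c changed by 0.50 ± 0.10 (SE, edgeR adjusted p = 0.000114) and Pbk by 0.49 ± 0.11 (SE, edgeR adjusted p = 0.000428). Smaller called rises were those of Aurkb (0.45 ± 0.10), Bub1 (0.45 ± 0.12), Ccnb1 (0.36 ± 0.14) and Cdk1 (0.28 ± 0.10) (SE), with edgeR adjusted p = 0.000661, 0.00313, 0.0303 and 0.0224. Plk1 at 0.18 ± 0.11 (SE, edgeR adjusted p = 0.161), Top2a at 0.10 ± 0.10 (SE, edgeR adjusted p = 0.394) and Mki67 at 0.07 ± 0.09 (SE, edgeR adjusted p = 0.527) were not called, and in all 3 genes replicate 2 of FGF2 lay within or below the naive range while replicates 1 and 3 lay above it. Plk1 was called with no filter on low counts (edgeR adjusted p = 0.0431) and with plain library totals (edgeR adjusted p = 0.0419). The smallest values were 0.03 for Nusap1, 0.02 for the chromokinesin Kif4, 0.01 for Racgap1, -0.02 for Cdc20 and -0.06 for Kif20a, none of them called. All of these but Racgap1 have exons that overlap those of a gene on the opposite strand, by 53 bases for Cdc20 to 1271 bases for Kif20a. The part of this overlap in the values was not tested.

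Much of the result for FGF2 turned on single libraries. Replicate 2 of FGF2 was the lowest of its group for 40 of the 40 genes, at or below the highest naive library for 22 and below all naive libraries for 9. Replicates 1 and 3 both exceeded every naive library for 36 genes. Without replicate 2 of FGF2, 34 genes were higher and the median was 0.38. Without replicate 3 of FGF2, 15 were higher, and without replicate 1 of FGF2, 16. Genes of the whole table that were higher ran from 4018 to 4547 when any 1 library was left out. The 4 endothelial markers summed to 12.9 to 13.5 CPM with FGF2 and 1.68 to 1.95 CPM in naive cells, and all 3 that were tested were called higher: Kdr by 3.14, Cdh5 by 2.25 and Pecam1 by 1.59 on the log2 scale. The 8 macrophage markers summed to 9.48 to 13.8 CPM with FGF2 and 8.28 to 9.33 CPM in naive cells, with Mrc1 (2.91) and Cd68 (1.63) called higher and Lyz2 (-2.73) and Csf1r (-2.59) lower. Of the 4 pericyte and smooth muscle markers Rgs5 (4.20) was called higher and Abcc9 (-2.13), Kcnj8 (-2.07) and Myh11 (-1.80) lower. The part of these markers in the result was not tested.

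OPN alone had a small effect on these genes in naive cells. Of the 40 genes 6 were lower and none was higher, where 16.5% of all genes tested were lower and 15.2% higher, so the share of called genes was near that of all genes. The median log2 fold change was -0.18, against 0.00 over all genes, and 36 of the 40 values were below 0. Libraries given OPN lay below naive ones without overlap for 16 of the 40 genes (23.8% of all genes tested).

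The 6 genes called lower with OPN came from 6 roles. Bub1b had 32.5, 28.7 and 29.3 CPM with OPN and 36.4, 41.9 and 42.7 CPM in naive cells and changed by -0.42 ± 0.09 (SE, edgeR adjusted p = 0.00154). Plk1 had 45.2, 41.7 and 39.3 CPM with OPN and 52.4, 55.5 and 57.8 CPM in naive cells and changed by -0.39 ± 0.11 (SE, edgeR adjusted p = 0.01). For both genes all OPN libraries lay below all naive libraries, and both calls held whichever of the 18 libraries was left out. The other 4 were Kif20a (-0.31 ± 0.10), Ccnb2 (-0.30 ± 0.09), Kif2c (-0.30 ± 0.11) and Aurkb (-0.29 ± 0.10) (SE), with edgeR adjusted p = 0.0187, 0.0131, 0.0404 and 0.0341. Cdc20 at -0.24 ± 0.10 (SE, edgeR adjusted p = 0.0856), Bub1 at -0.20 ± 0.12 (SE, edgeR adjusted p = 0.221), Top2a at -0.20 ± 0.10 (SE, edgeR adjusted p = 0.127), Mki67 at -0.17 ± 0.09 (SE, edgeR adjusted p = 0.163) and Ccnb1 at -0.15 ± 0.14 (SE, edgeR adjusted p = 0.445) were not called. The highest values were 0.16 for Knl1, 0.15 for Spc25, 0.04 for Cenpf, 0.04 for Anln and -0.01 for Cdk1, none of them called.

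The count of 6 depended on single libraries. It was 2 without replicate 3 of naive cells, 4 without replicate 2 of naive cells, and 3 without replicate 2 or without replicate 3 of OPN. With no filter on low counts it was 14, and with only the OPN and naive groups in the model 15. The count was 10 without replicate 2 of FGF2 and 12 without replicate 2 of FGF2 plus OPN, libraries that are in neither group compared. Genes of the whole table that were lower numbered 2492 in the main model, 2351 with no filter and 2470 with only these groups. They ran from 1928 to 2748 when a library was left out. Replicate 3 of the naive cells was the highest of its group for 35 of the 40 genes and replicate 3 of OPN the lowest of its group for 35. The 8 macrophage markers summed to 14.0 to 18.7 CPM with OPN and 8.28 to 9.33 CPM in naive cells, with Lyz2 (1.37) and Cd68 (0.73) called higher on the log2 scale. Adgre1 reached at most 0.0695 CPM and C1qa at most 0.0337 CPM in any library. The macrophage markers Mrc1 (0.35) and Csf1r (0.09) were tested and not called. The endothelial markers Pecam1 (1.93) and Kdr (0.61, edgeR adjusted p = 0.04998) were also called higher, and Cdh5 (-0.12) was not called. Pecam1 was low throughout, at 0.260 to 0.507 CPM with OPN and 0.0309 to 0.137 CPM in naive cells. The part of these markers in the result was not tested.

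Fibroblasts from arthritic mice had more RNA of nearly all of these genes than naive cells. Of the 40 genes 39 were higher in unstimulated STIA cells and none was lower, where 18.6% of all genes tested were higher and 18.2% lower. The median log2 fold change was 0.54, or 1.45 times the naive level, against -0.01 over all genes. Libraries did not overlap for 38 of the 40 genes (25.4% of all genes tested). The comparison shares the naive libraries with those of FGF2, OPN and both factors above. The 8 fibroblast markers summed to 49383 to 53887 CPM in STIA cells and 67260 to 75672 CPM in naive cells, with 5 called lower, Vim called higher (0.18 on the log2 scale) and Thy1 and Pdgfrb not called. Endothelial markers summed to 3.76 to 4.07 CPM in STIA cells and 1.68 to 1.95 CPM in naive cells, with Pecam1 (1.91) and Kdr (1.32) called higher. The endothelial marker Cdh5 (0.58) was not called. Pericyte and smooth muscle markers summed to 11.8 to 13.1 CPM in STIA cells and 4.72 to 6.70 CPM in naive cells. Only Myh11 (2.16) was called higher, while Kcnj8 (-0.95), Abcc9 (-0.71) and Rgs5 (-0.03) were below 0 and not called. The 8 macrophage markers summed to 7.91 to 8.20 CPM in STIA cells and 8.28 to 9.33 CPM in naive cells. Of those tested, Cd68 (0.66) was called higher, while Csf1r (-0.44), Lyz2 (-0.30) and Mrc1 (-0.19) were not called. The part of these markers in the result was not tested.

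By role, the median rise in STIA cells ran from 0.44 for the 2 genes of chromosome structure to 0.61 for the 4 mitotic kinases. Aurka, the kinase of centrosomes and spindle poles, had 49.9, 53.5 and 51.4 CPM in STIA cells and 27.5, 32.1 and 32.4 CPM in naive cells and changed by 0.75 ± 0.12 (SE, edgeR adjusted p = 0.000108), the largest value of the 40. Anln had 159.7, 165 and 150.2 CPM in STIA cells and 92.7, 90.5 and 100.4 CPM in naive cells and changed by 0.74 ± 0.11 (SE, edgeR adjusted p = 7.07e-05). Every STIA library of both genes lay far above every naive one. Ube2c changed by 0.66 ± 0.10, Pbk by 0.64 ± 0.11 and Cdk1 by 0.63 ± 0.10 (SE), with edgeR adjusted p = 1.85e-05, 6.5e-05 and 6.15e-05. Mki67 had 144, 131 and 139 CPM in STIA cells and 102, 104 and 106 CPM in naive cells and changed by 0.41 ± 0.09 (SE, edgeR adjusted p = 0.00127). Top2a had 240.3, 261 and 244 CPM in STIA cells and 174, 170.1 and 195 CPM in naive cells and changed by 0.47 ± 0.10 (SE, edgeR adjusted p = 0.000828). The groups did not overlap for these genes either, and Bub1 (0.60), Ccnb1 (0.58), Plk1 (0.57), Aurkb (0.51) and Cdc20 (0.48) were called higher with log2 values between those of Mki67 and Aurka.

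The smallest values in STIA cells were those of Nusap1 (0.37 ± 0.10), Kif20a (0.32 ± 0.10), Cenpf (0.30 ± 0.10) and Ccnb2 (0.27 ± 0.09) (SE), with edgeR adjusted p = 0.00409, 0.0133, 0.0161 and 0.0212. Cdc25c was the 1 gene of the 40 not called, with 11.2, 12.6 and 9.48 CPM in STIA cells and 9.53, 8.01 and 10.1 CPM in naive cells, overlapping groups and a log2 fold change of 0.26 ± 0.15 (SE, edgeR adjusted p = 0.167). Cdc25c was also the least abundant of the 40 genes in CPM, and its exons overlap those of Gm3550 on the opposite strand over 623 bases.

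**Figure D3:**
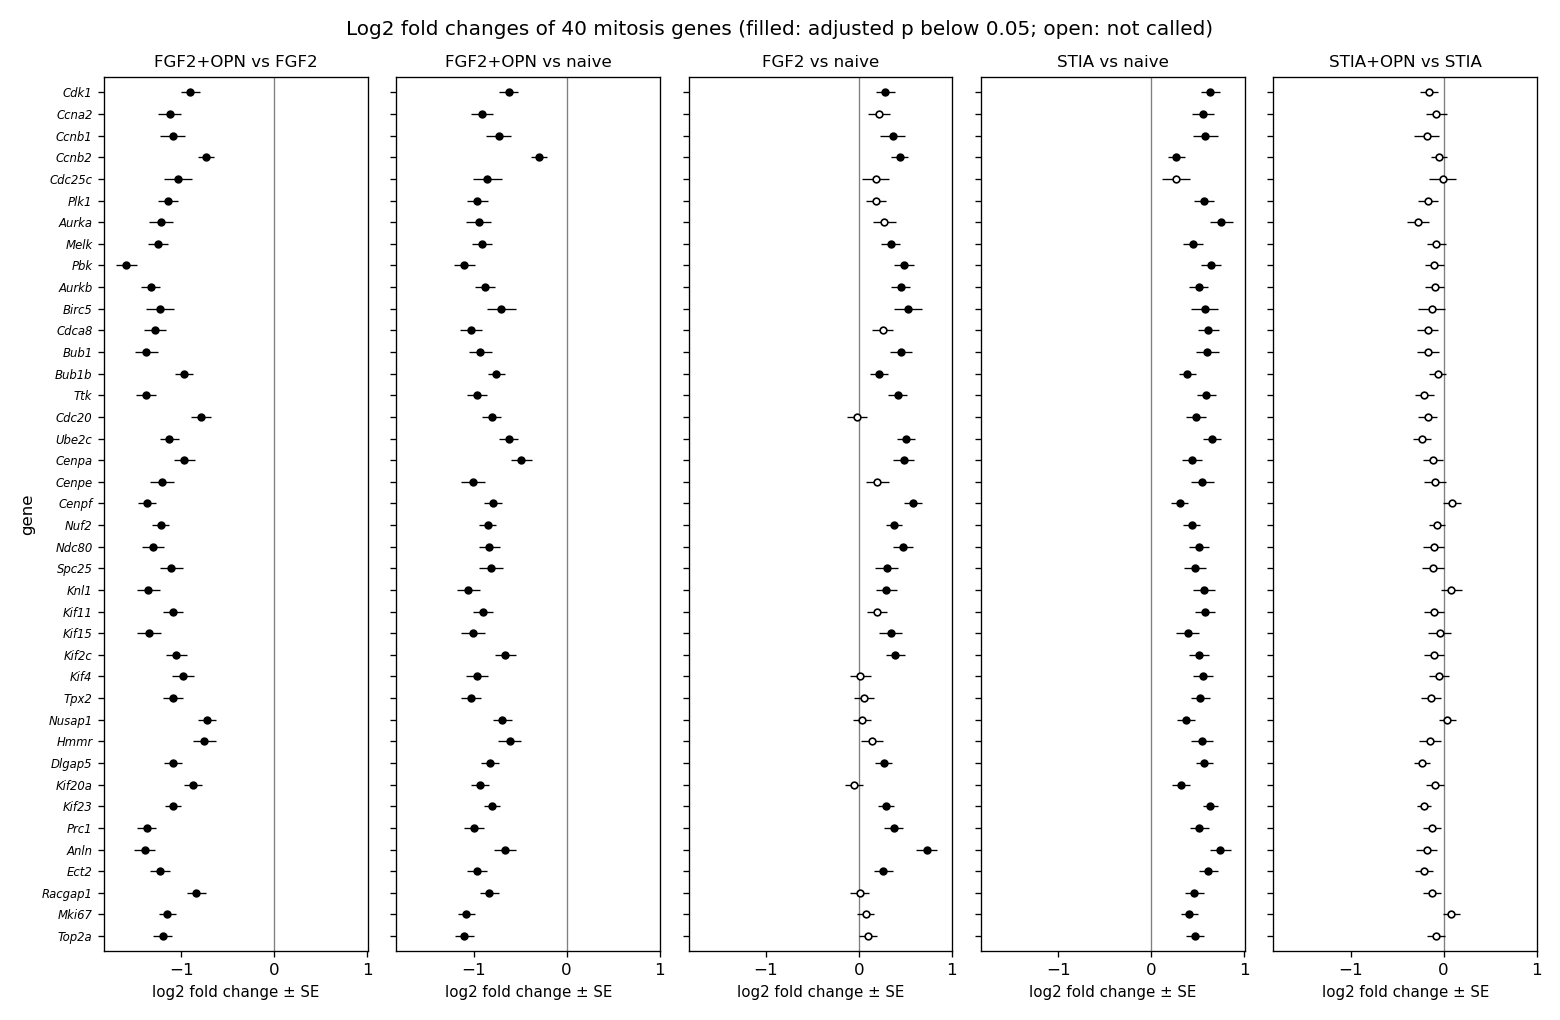
Log2 fold changes with SE of the 40 genes (rows) in 5 comparisons (panels), with filled points for an adjusted p below 0.05 and open points for genes not called. All 40 points lie left of 0 in the panels of FGF2 plus OPN against FGF2 and against naive cells, 39 filled points lie right of 0 for STIA against naive cells, and no point is filled for STIA with OPN against STIA.

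OPN given to STIA cells changed none of the 40 genes past the threshold. The edgeR quasi-likelihood test called 0 higher and 0 lower, where 1.15% of all genes tested were higher, 1.02% lower and 2.17% either. At an unadjusted p below 0.05 there were 5, all lower, and DESeq2 called 0. The median log2 fold change was -0.11, against 0.00 over all genes, with 36 of the 40 values below 0. Libraries given OPN lay below the unstimulated STIA libraries without overlap for 19 of the 40 genes (13.2% of all genes tested). When the model held only the 2 STIA groups, 9 of the 40 genes were called lower (Aurka, Ube2c, Dlgap5, Kif23, Ect2, Ccnb1, Plk1, Cdc20 and Anln), and with no filter on low counts Aurka alone was (edgeR adjusted p = 0.0293). Genes of the whole table that were lower numbered 715 and 424 in these 2 settings, against 153 in the main model.

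The 5 lowest values in STIA cells given OPN were -0.27 ± 0.12 (SE, edgeR adjusted p = 0.302) for Aurka, -0.24 ± 0.09 (SE, edgeR adjusted p = 0.243) for Ube2c, -0.23 ± 0.09 (SE, edgeR adjusted p = 0.217) for Dlgap5, a spindle microtubule protein gene, -0.21 ± 0.10 (SE, edgeR adjusted p = 0.332) for Ect2 and -0.21 ± 0.08 (SE, edgeR adjusted p = 0.206) for Kif23, the kinesin of centralspindlin. Aurka had 45.1, 42.6 and 40.3 CPM in STIA cells given OPN and 49.9, 53.5 and 51.4 CPM in unstimulated STIA cells. Cdk1 had 63.0, 71.2 and 68.6 CPM with OPN and 77.2, 75.7 and 73.1 CPM without it. The groups did not overlap for either gene. Mki67 had 142, 147 and 149.9 CPM with OPN and 144, 131 and 139 CPM without it, with overlapping groups and a change of 0.08. The highest values were 0.09 for Cenpf, 0.08 for Mki67, 0.08 for Knl1, 0.04 for Nusap1 and -0.01 for Cdc25c. Top2a (-0.08), Aurkb (-0.10), Bub1 (-0.17), Cdc20 (-0.17), Plk1 (-0.17) and Ccnb1 (-0.18) lay between, and Cdk1 was at -0.16 ± 0.10 (SE).

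Whether OPN acted differently in STIA and naive cells was tested as the difference of its effects. It was called for 0 of the 40 genes in either direction, where 11.8% of all genes tested had a called positive and 10.5% a called negative difference, and 1 gene had an unadjusted p below 0.05. That gene was Bub1b, with a difference of 0.35 ± 0.13 (SE, edgeR adjusted p = 0.0543). With no filter on low counts Bub1b was called (edgeR adjusted p = 0.0179), and with only the 4 groups of the comparison in the model Bub1b and Mki67 were. The median difference was 0.04, with 0.26 for Ccnb2, 0.25 for Cdc25c, 0.25 for Mki67 and 0.22 for Plk1 as the next highest values. The lowest were -0.26 for Spc25, -0.22 for Anln, -0.21 for Dlgap5, -0.18 for Ect2 and -0.15 for Cdk1. Aurkb (0.20), Top2a (0.12), Cdc20 (0.07), Bub1 (0.03) and Ccnb1 (-0.04) lay between these. The SE of such a difference was 0.17 for Bub1 and 0.13 for Mki67, which limits what could be seen, and a p past no threshold does not show that OPN acts alike in both.

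Other genes of mitosis, listed with earlier results of these data known, were mostly lower with both factors and mostly higher in STIA cells. Of 67 further mitosis genes 57 were lower and 3 higher with FGF2 plus OPN than in naive cells (median -0.75), where 26.1% of all genes tested were lower and 23.7% higher. Against FGF2 63 of the 67 were lower and none higher (median -0.9998), where 31.2% of all genes were lower. The largest falls against FGF2 were those of Depdc1b (-1.90 ± 0.19), Cep55 of the midbody (-1.48 ± 0.12) and the kinetochore protein gene Zwint (-1.39 ± 0.07) (SE), with edgeR adjusted p = 1.34e-08, 4.38e-10 and 1.43e-13. In STIA cells 50 of the 67 were higher than in naive cells and none lower (median 0.43), where 18.6% of all genes were higher, led by the histone H3 kinase gene Haspin at 0.86 ± 0.15 (SE, edgeR adjusted p = 0.000132). With FGF2 alone 27 were higher and 5 lower, where 29.1% of all genes were higher and 28.1% lower, led by Zwint at 1.79 ± 0.07 (SE, edgeR adjusted p = 9.74e-16). With OPN alone 5 were higher and 13 lower, where 15.2% and 16.5% of all genes were, so the share called lower was near that of all genes. Kif18b, a kinesin of spindle microtubules, stood at -0.52 ± 0.11 (SE, edgeR adjusted p = 0.00133) with OPN. No gene of the 67 was called in STIA cells given OPN against unstimulated STIA cells.

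Of the 8 condensin genes, whose products compact mitotic chromosomes, all were lower with both factors than in naive cells (26.1% of all genes tested) and than with FGF2 (31.2% of all genes), with Ncapg2 at -1.22 ± 0.09 (SE, edgeR adjusted p = 5.88e-10) and Smc2 at -0.82 ± 0.10 (SE, edgeR adjusted p = 1.94e-06) against naive cells. In STIA cells 6 of 8 were higher than in naive cells (18.6% of all genes), with Smc2 at 0.73 ± 0.10 (SE, edgeR adjusted p = 1.51e-05). FGF2 alone raised 3 of 8 (29.1% of all genes), and OPN alone lowered 2 (16.5% of all genes). With OPN Ncapd2 changed by -0.53 ± 0.08 (SE, edgeR adjusted p = 2.48e-05).

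Of 21 genes for regulators of mitotic transcription (the MuvB complex, its partners and the E2F family), 15 were lower and 1 higher with FGF2 plus OPN than with FGF2, where 31.2% of all genes tested were lower and 27.3% higher. E2f8, a repressor that is itself an E2F target, changed by -3.73 ± 0.12 (SE, edgeR adjusted p = 9.64e-17), Mybl2, which encodes B-MYB, by -1.55 ± 0.15 (SE, edgeR adjusted p = 1.9e-08) and Foxm1 by -1.04 ± 0.09 (SE, edgeR adjusted p = 2.32e-09). Against naive cells 11 were lower and 2 higher (26.1% and 23.7% of all genes), with Mybl2 at -1.30 ± 0.16 (SE, edgeR adjusted p = 5.24e-07) and Foxm1 at -0.71 ± 0.09 (SE, edgeR adjusted p = 1.57e-06). FGF2 alone raised 8 and lowered 1 (29.1% and 28.1% of all genes), with E2f8 at 3.23 ± 0.11 (SE, edgeR adjusted p = 1.33e-16) and Foxm1 at 0.34 ± 0.09 (SE, edgeR adjusted p = 0.00282). OPN alone raised 1 and lowered 4, where 15.2% and 16.5% of all genes were, a share of lower genes near that of all genes, and Foxm1 changed by -0.56 ± 0.09 (SE, edgeR adjusted p = 8.79e-05). In STIA cells 10 were higher and 1 lower than in naive cells (18.6% and 18.2% of all genes), with E2f8 at 1.06 ± 0.11 (SE, edgeR adjusted p = 3.34e-07) and Mybl2 at 0.85 ± 0.14 (SE, edgeR adjusted p = 7.02e-05).

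Of 17 brakes on mitotic entry and exit factors, 5 were higher and 4 lower with FGF2 plus OPN than with FGF2, near the 27.3% higher and 31.2% lower of all genes tested, so these counts do not set the list apart. Cdkn1c, which encodes the CDK inhibitor p57, changed by 2.73 ± 0.21 (SE, edgeR adjusted p = 1.48e-10), and the growth arrest genes Gadd45g and Gadd45b by 2.02 ± 0.23 (SE, edgeR adjusted p = 3.92e-06) and 1.90 ± 0.16 (SE, edgeR adjusted p = 1.03e-08). Against naive cells Cdkn1c was higher with both factors, at 1.49 ± 0.19 (SE, edgeR adjusted p = 7e-07), while Pkmyt1 and Wee1, kinases that keep CDK1 inactive, were lower, at -1.36 ± 0.16 (SE, edgeR adjusted p = 4.64e-07) and -1.13 ± 0.09 (SE, edgeR adjusted p = 1e-09). FGF2 alone raised 4 and lowered 8 (29.1% and 28.1% of all genes), with Gadd45b at -2.81 ± 0.16 (SE, edgeR adjusted p = 1.99e-11) and Cdkn1c at -1.24 ± 0.22 (SE, edgeR adjusted p = 5.07e-05). In STIA cells 3 were higher and 3 lower than in naive cells, again near the 18.6% and 18.2% of all genes, with Cdkn1c at -1.08 ± 0.22 (SE, edgeR adjusted p = 0.000573). Cdkn1c was thus lower with FGF2 and in unstimulated STIA cells, where the summed mitosis genes were higher. It was higher with both factors, where that sum was lower. This describes 3 group means against the same naive libraries, for a gene picked from the 17. The groups given OPN alone are not part of it, although STIA cells given OPN also had higher mitosis genes. Whether Cdkn1c is linked to the mitosis genes was not tested.

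**Figure D4:**
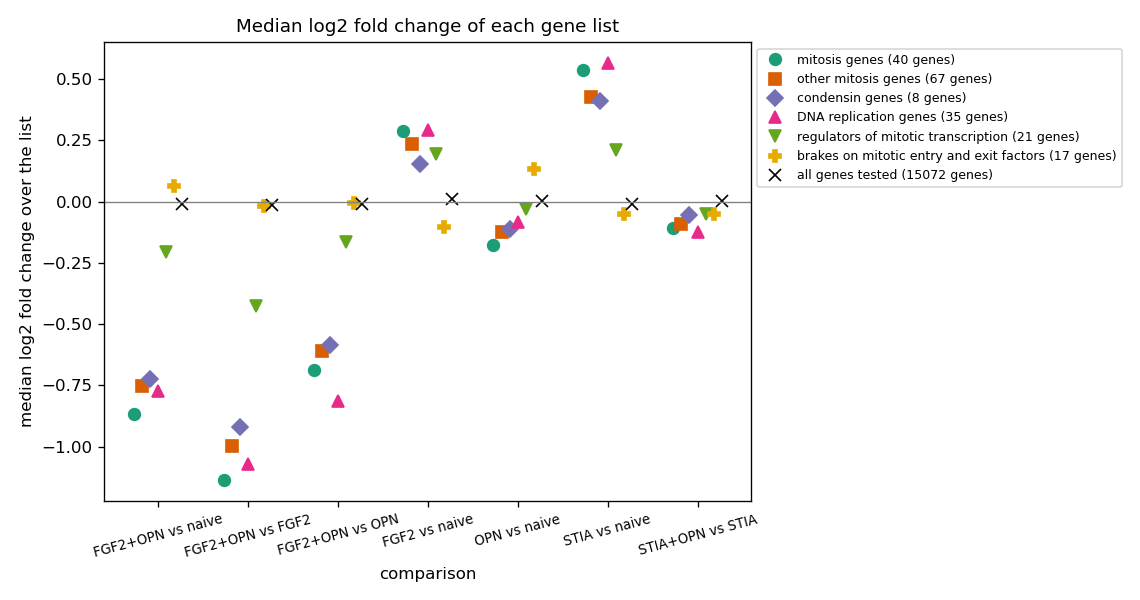
Median log2 fold change of the 40 mitosis genes, of 5 other lists and of all 15072 genes tested in 7 comparisons. The 40 genes, the other mitosis genes, the condensin genes and the DNA replication genes have medians of -0.72 or lower for FGF2 plus OPN against naive cells and of 0.41 or higher for STIA against naive cells. In both of these comparisons the median of all genes tested is within 0.01 of 0.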

How the data were processed

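The data are 18 RNA-seq libraries of mouse synovial fibroblasts, 3 in each of 6 groups taken from the sample labels. The deposited values are raw counts per gene, made by the authors with STAR and featureCounts on GRCm38 (mm10), per the submitters' processing notes. Tool versions, annotation release, strand setting and the treatment of multimapped reads are not stated there. Symbols were added from a gene name table for 32158 of 32285 identifiers, and the others held 0.0294% of all counts. No other column of values per sample was in the table. For 32031 identifiers, the 40 mitosis genes among them, the locus had the same chromosome, start and end in GENCODE M21.

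Counts were tested with edgeR 4.0.16 in R 4.3.3: TMM scaling, edgeR's default filter on low counts by group, a robust quasi-likelihood model with 1 mean per group over all 18 libraries, 9 contrasts and Benjamini-Hochberg adjustment over 15072 genes, all two-sided. The common biological coefficient of variation was 7.99%. SEs were obtained from each log2 fold change and its F statistic, as the absolute change over the root of F. Gene levels use CPM after TMM scaling, RPKM divides these by exon length, and marker levels are CPM on plain totals. The model was tested on simulated data first. DESeq2 1.42.0, other scalings, no filter, smaller sets of groups, a replicate block and leaving out each of the 18 libraries were alternatives. Tables and figures were made in Python 3.11.15 with pandas 2.3.3 and matplotlib 3.10.9.

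The 40 genes, the other gene lists, the markers and the tests were chosen with earlier results of these data known. In each comparison the text names the 5 highest and 5 lowest log2 fold changes of the 40 genes, genes not called where these were 5 or fewer, a panel of 8 genes, and up to 5 called genes of each other list. Genes shown otherwise, such as Bub1b beside Ccnb2 under library totals and the role medians, were chosen after their values were seen. Replicates of 1 group were never identical and differed by more than sampling noise (chi-square per degree of freedom from 4.42 to 40.7). Promoter windows came from RefSeq (GRCm38.p6), and motifs were searched on both strands.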

Additional observations from a re-analysis of the deposited data

Results flagged for a closer look

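The effect of FGF2 differed between cells given OPN and cells without it for 40 of the 40 mitosis genes, by the interaction test of edgeR's quasi-likelihood model. Of all genes tested, 51.2% had a called interaction and 27.2% a called negative one. The log2 interaction was -1.56 for Pbk, -1.52 for Knl1, -1.43 for Anln, -1.41 for Cenpf and -1.25 for Spc25. It was -0.98 for Mki67, -1.001 for Top2a, -0.89 for Cdk1, -0.95 for Ccnb1, -1.04 for Aurkb, -0.75 for Plk1 and -1.17 for Bub1. The values nearest to 0 were -0.43 for Ccnb2, -0.55 for Cdc20, -0.56 for Bub1b, -0.57 for Kif20a and -0.58 for Racgap1. With 3 libraries per group no single library was tested as an outlier.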

How the results depend on the processing

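Of 253 single-gene values checked under 24 alternatives, none changed its sign while called, and 87 of 6072 checks lost and 19 gained a call. Of 36 counts of genes, those that moved by more than 1.5 times are given here. The number of mitosis genes lower with OPN than in naive cells was 14 with no filter on low counts and 15 with only the groups compared, and ran from 2 to 12 when 1 library was left out. For comparison, genes of the whole table that were lower there numbered 2351 and 2470, and ran from 1928 to 2748. The number of mitosis genes higher with FGF2 than in naive cells ran from 15 to 34 when 1 library was left out, and that of the whole table from 4018 to 4547. In STIA cells given OPN against unstimulated STIA cells, 1 mitosis gene was lower with no filter and 9 with only the groups compared, and none when any 1 library was left out. There, genes of the whole table that were higher numbered 524 with no filter, 652 with only the groups compared and 286 by DESeq2, and those lower numbered 424, 715 and 329. When 1 library was left out they ran from 23 to 322 higher and from 13 to 293 lower. The difference of the OPN effects between STIA and naive cells was called positive for 1 mitosis gene with no filter, 1 with the replicate block and 2 with only the groups compared, and for 0 to 1 when 1 library was left out. Genes of the whole table lower with both factors than in naive cells numbered 2414 with plain library totals, against 3940 with TMM. The causes were not tested.

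The labels do not say whether the replicate numbers pair the samples. Over 45 pairs of same-numbered libraries the correlation of deviations from group means ran from -0.10 to 0.20, with 2 above 0.1. Pairs with different numbers were not compared, so these values cannot settle whether the numbers pair the samples. With the replicate number as a block, 24 mitosis genes were higher with FGF2, 5 lower with OPN, 40 lower with both factors and 39 higher in STIA cells, each against naive cells. Genes of the whole table called in these directions under the block numbered 4328, 2400, 3860 and 2733. Under the block Kif2c was not called with OPN against naive cells (edgeR adjusted p = 0.0521) and Bub1b was called for the difference of the OPN effects (edgeR adjusted p = 0.0480). The interaction was called negative for 40 of 40 genes under every alternative run, where 27.2% of all genes tested had one in the main model. The lowest count of these genes in a library was 131, for Cdc25c, the 1 gene not called in STIA cells against naive cells. What sets the precision was not tested.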

Other observations

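DNA replication genes, which act before mitosis in the cycle, were mostly lower with both factors and mostly higher in STIA cells. Of 35 such genes 32 were lower and none higher with FGF2 plus OPN than in naive cells (median -0.77), where 26.1% of all genes tested were lower, with Ccne2, an E-type cyclin, at -1.38 ± 0.17 (SE, edgeR adjusted p = 9.33e-07) and Mcm3 of the replicative helicase at -1.34 ± 0.14 (SE, edgeR adjusted p = 3.98e-07). Against FGF2 34 were lower and none higher, where 31.2% of all genes were lower, led by the licensing factor Cdt1 at -1.80 ± 0.10 (SE, edgeR adjusted p = 1.13e-12). In STIA cells 33 of 35 were higher than in naive cells and none lower, where 18.6% of all genes were higher, led by Rrm2, a subunit of ribonucleotide reductase, at 1.14 ± 0.22 (SE, edgeR adjusted p = 0.0011). FGF2 alone raised 16 and lowered 1, where 29.1% and 28.1% of all genes were. OPN alone raised 5 and lowered 7, near the 15.2% and 16.5% of all genes.

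The D cyclin Ccnd1, which couples growth factor signals to the cycle, did not follow the mitosis genes in every group. It was higher with FGF2 than in naive cells by 3.41 ± 0.14 (SE, edgeR adjusted p = 2.29e-13), higher with OPN by 1.00 ± 0.13 (SE, edgeR adjusted p = 1.41e-05) and higher with both factors by 0.74 ± 0.13 (SE, edgeR adjusted p = 9.83e-05). Against FGF2 alone, both factors changed Ccnd1 by -2.67 ± 0.13 (SE, edgeR adjusted p = 9.4e-12). Its kinase partner Cdk6 was lower with both factors than in naive cells, at -1.07 ± 0.10 (SE, edgeR adjusted p = 2.05e-08). In STIA cells Ccnd1 was higher than in naive cells, at 0.73 ± 0.13 (SE, edgeR adjusted p = 0.000221).

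With OPN, the difference of its effects between STIA and naive cells was called for E2f8 at -0.62 ± 0.16 (SE, edgeR adjusted p = 0.00708), for Foxm1 at 0.42 ± 0.13 (SE, edgeR adjusted p = 0.0198) and for Rrm2 at -1.10 ± 0.30 (SE, edgeR adjusted p = 0.0194). E2f8 and Foxm1 were picked from the 21 regulators of mitotic transcription and Rrm2 from the 35 DNA replication genes, so these calls describe single genes and not the lists. Of all genes tested, 11.8% had a called positive and 10.5% a called negative difference. It was called for none of the 40 mitosis genes by edgeR's quasi-likelihood test, with 1 at an unadjusted p below 0.05.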
